A study of Mus musculus with 6 samples.

Results

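The genes described here are 10 that mark red pulp macrophages, measured in splenic type 2 conventional dendritic cells (cDC2s). They are Vcam1, Hmox1, C1qa, C1qb, C1qc, Spic, Cd5l, Slc40a1, Axl and Mertk, taken by symbol from the deposited count table. All 10 were among its 14535 gene rows and among the 11934 genes kept by the filter on low counts. They were picked with results of these libraries already known, namely that their levels were higher in IRF4-deficient cDC2s and differed between the IRF4-deficient libraries. Their own levels and fold changes are therefore a description, without a test. Tests are given for other genes, but their lists too were chosen with earlier results of these data known. Their calls come from the same libraries and are no independent support.

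Red pulp macrophages take up aged red blood cells and recycle their iron. The transcription factor Spi-C, encoded by Spic, is required for their development and is induced by haem. Conventional dendritic cells, in contrast, are specialised for presenting antigen to T cells, and cDC2s depend in part on the transcription factor IRF4.

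The series holds RNA-seq libraries of splenic cDC2s from C57BL/6 mice, 3 of them wild type (WT) and 3 IRF4-deficient. The latter carry CD11c-Cre with floxed Irf4 alleles (Irf4fl/fl), so that Irf4 is deleted in cells where the CD11c (Itgax) promoter drives Cre, and some macrophages express CD11c too. The labels give no treatment, age, sort gate or pooling, and do not say that replicates are separate mice, so a p-value here reflects only how far these libraries scatter, possibly for technical reasons. Neither group has Cre without floxed alleles, and effects of Cre cannot be told apart from loss of IRF4.

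Libraries held 7421605 to 11459920 counts. The targeted gene Irf4 measured 90.8, 65.3 and 84.0 CPM (counts per 1000000, after TMM scaling of library sizes) in the IRF4-deficient group and 292, 296 and 345 CPM in WT. Here and below, values in a row follow replicates 1, 2 and 3. Of 12 cDC2 markers, Mgl2 was near 0 (0.557 to 1.38 CPM), 6 were called lower in IRF4-deficient cells and 2 higher by the test described next. Cd4 fell from 555 ± 20.6 to 131 ± 21.9 CPM (SD, n = 3 each) and Cd209a from 318 ± 36.5 to 129 ± 21.3 CPM, Zbtb46 and Flt3 fell by 0.94 and 0.72 on the log2 scale, and Itgam rose from 617 ± 41.5 to 1869 ± 131 CPM. Smaller differences were those of Itgax (1672 to 1757 CPM against 1353 to 1427 CPM in WT) and Cd74 (11561 to 12951 against 13008 to 14986 CPM), and Sirpa was not called (951 to 1031 against 902 to 916 CPM). The calls of Cd74 and H2-Ab1 held in 2 and 3 of 6 fits that left out 1 library. A principal component analysis separated the genotypes on its first axis (59.4% of variance) and set IRF4-deficient replicate 3 apart on its second (13.1%). The edgeR quasi-likelihood test called 2429 genes at a Benjamini-Hochberg adjusted p under 0.05, with 9.87% of tested genes higher (1178) and 10.5% lower (1251) in IRF4-deficient cells, or 20.4% in either direction. With library totals in place of TMM the split was 1605 higher and 1005 lower.

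Summed over the 10 genes, expression amounted to 1578, 2251 and 2989 CPM in the IRF4-deficient group and 1069, 1251 and 938 CPM in the WT group. Every IRF4-deficient library lay above every WT library, with replicate 1 nearest to WT and replicate 3 farthest from it. The means were 2273 ± 706 CPM and 1086 ± 157 CPM (SD, n = 3 each), a 2.09-fold ratio. The log2 ratio of the means was 1.07, and 0.82 without IRF4-deficient replicate 3. The 10 genes made up 0.162, 0.229 and 0.310% of all counts in the IRF4-deficient libraries and 0.104, 0.120 and 0.0925% in WT. In bulk RNA fewer or more cells of one type and less or more RNA per cell cannot be told apart.

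In 8 of 10 genes the IRF4-deficient values were all above the WT values, against 17.5% of tested genes, and Spic and Mertk were the exceptions. Replicate 1 was the lowest IRF4-deficient library for 10 of 10 genes, against 31.9% of tested genes. For 9 of 10 genes replicate 3 was in addition the highest, which held for 18.3% of tested genes, and C1qa was the exception. The edgeR fit over all genes called 6 of the 10 higher (Vcam1, C1qa, C1qb, Cd5l, Slc40a1 and Mertk), beside 9.87% of all genes. DESeq2, limma-voom and edgeR without robust shrinkage each called 9 of 10, all but Spic (beside 9.06, 9.5 and 9.82% of genes). The count was 5 with no filter (8.34%), 8 with the replicate number as a block (9.13%), 10 without IRF4-deficient replicate 1 (9.08%) and 3 without WT replicate 1 (8.18%). As the genes were picked on this contrast, nothing is read from these counts.

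**Figure D1:**
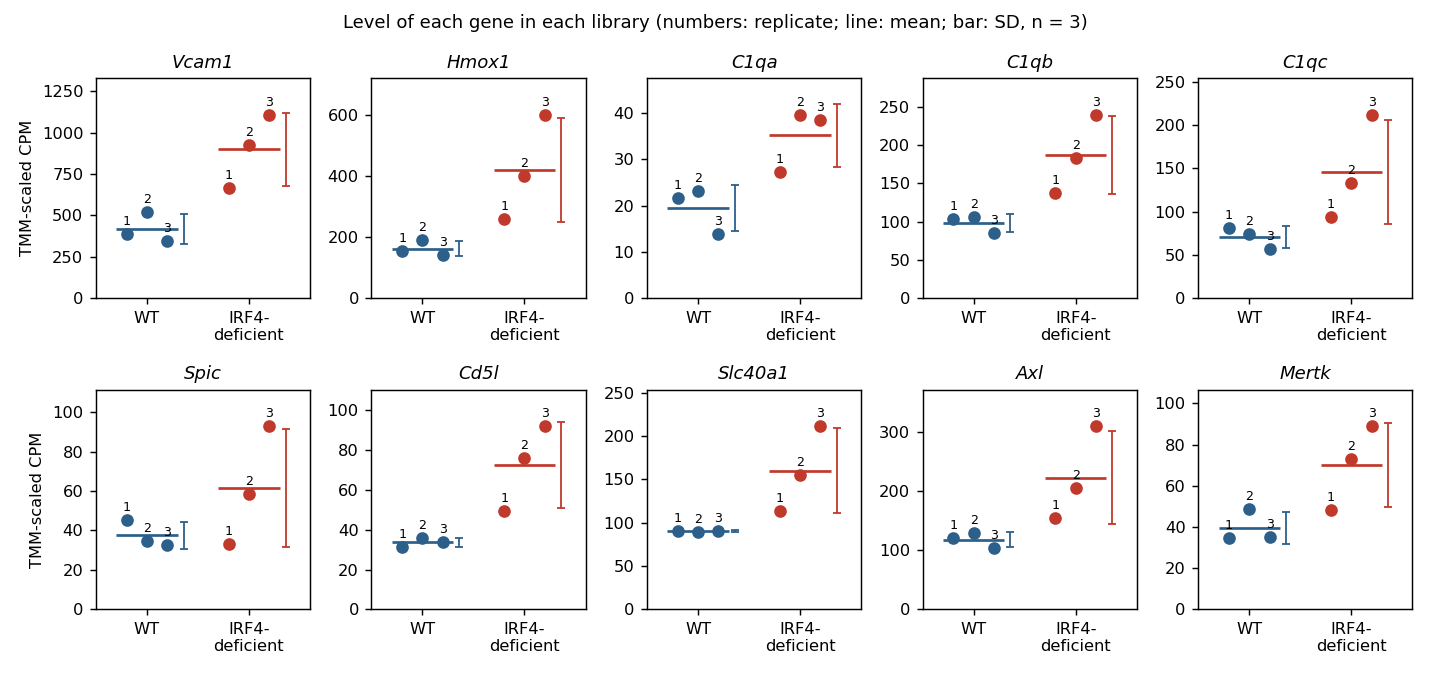
Level of each of the 10 genes in TMM-scaled CPM (vertical axes start at 0) in the WT (blue) and IRF4-deficient (red) libraries. Points are libraries with their replicate number, lines are group means and bars are SD (n = 3), and IRF4-deficient replicate 1 is the lowest red point in every panel and falls within the WT range for Spic and Mertk.

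Upstream sequences are shown for genes of the set whose RefSeq promoter (GRCm38.p6) holds the letters GAGGAA, since Spi-C is an ETS-family factor of the PU.1 subfamily, which binds purine-rich sites that can hold these letters. Other forms of such sites were not searched for, so a promoter without GAGGAA may still hold them. RefSeq promoters were matched by symbol for 6 of the 10 genes (C1qb, C1qc, Spic, Cd5l, Axl and Mertk). In the 250 bases before the start, GAGGAA or its reverse complement TTCCTC was found in 4 of these 6 (C1qb, C1qc, Cd5l and Axl), and in 23.3% of 32851 promoters of the same length. TGCTGA or TCAGCA, a half-site of the MAF and BACH recognition element, was found in 3 of 6 (C1qb, Spic and Cd5l) and in 16.1% of all. A match describes the letters and not a bound site. The C1qc window overlaps annotated exon bases and is not printed. The 3 sequences run 5′ to 3′ on the gene's strand and end at the base before the RefSeq start, with GAGGAA or TTCCTC in capitals.
C1qb, chr4:136886201-136886450, minus strand: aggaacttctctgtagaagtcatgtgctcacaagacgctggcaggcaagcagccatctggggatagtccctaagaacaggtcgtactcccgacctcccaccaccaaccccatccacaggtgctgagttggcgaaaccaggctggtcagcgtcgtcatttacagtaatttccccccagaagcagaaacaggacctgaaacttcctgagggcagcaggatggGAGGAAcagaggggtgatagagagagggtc
Cd5l, chr3:87357631-87357880, plus strand: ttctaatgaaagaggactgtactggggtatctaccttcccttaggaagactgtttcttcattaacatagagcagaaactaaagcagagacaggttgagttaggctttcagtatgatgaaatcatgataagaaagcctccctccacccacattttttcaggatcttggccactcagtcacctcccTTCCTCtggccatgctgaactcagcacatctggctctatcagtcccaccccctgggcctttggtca
Axl, chr7:25788734-25788983, minus strand: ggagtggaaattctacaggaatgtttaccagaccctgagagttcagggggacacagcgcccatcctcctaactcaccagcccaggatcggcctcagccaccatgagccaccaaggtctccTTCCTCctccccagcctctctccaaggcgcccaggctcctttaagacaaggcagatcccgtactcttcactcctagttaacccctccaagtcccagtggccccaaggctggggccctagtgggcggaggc
The match begins 30 bases before the start in C1qb, 66 in Cd5l and 130 in Axl. Levels of these 3 genes differed between IRF4-deficient replicates 3 and 1 by 1.74, 1.86 and 2.01 times. C1qc, whose window also held a match, differed by 2.26 times. Spic, with TGCTGA or its reverse complement only, differed by 2.82 times, and Mertk, whose window held neither motif, by 1.84 times. Whether these letters bear on the levels was not tested.

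Spic (chromosome 10, 88674772 to 88685015, minus strand, GRCm38) encodes the factor that red pulp macrophages need. It measured 32.9, 58.5 and 92.7 CPM in the IRF4-deficient group and 45.5, 34.5 and 32.5 CPM in WT. IRF4-deficient replicate 1 lay below WT replicates 1 and 2, so that the groups overlapped. Of the 10 genes Spic had the smallest log2 fold change (0.71, SE 0.39) and the largest ratio between IRF4-deficient replicates 3 and 1, 2.82 (95% exact binomial interval 2.48 to 3.20, which like those below covers counting error only). Its log2 fold change was 0.28 without IRF4-deficient replicate 3 and 1.02 without replicate 1.

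Hmox1 and Slc40a1 handle haem and iron. Hmox1 (chromosome 8, 75093621 to 75100589, plus strand), whose product haem oxygenase 1 opens the haem ring, measured 258, 403 and 601 CPM in the IRF4-deficient group and 155, 190.0 and 142 CPM in WT. The groups did not overlap. Its log2 fold change of 1.37 (SE 0.36) was the largest of the 10, and IRF4-deficient replicate 3 was 2.33 times as high as replicate 1 (95% exact binomial interval 2.22 to 2.44). Slc40a1 (chromosome 1, 45908068 to 45926523, minus strand) encodes ferroportin, which exports the released iron, and measured 113, 155 and 211 CPM in the IRF4-deficient group. The WT libraries were nearly equal, at 90.9, 89.6 and 90.8 CPM, and all lay below the IRF4-deficient ones. The log2 fold change was 0.82 (SE 0.19). The ratio of Hmox1 to Slc40a1 CPM within a library was 2.29, 2.59 and 2.85 in the IRF4-deficient group and 1.71, 2.12 and 1.56 in WT, without overlap.

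Among 24 tested genes of iron and haem handling outside the set, 7 were called higher and 2 lower (edgeR, adjusted p under 0.05), and their median log2 fold change was 0.25 beside 0.0025 for all genes. Of all tested genes 9.87% were called higher and 10.5% lower, the shares to set beside the counts of this list and those below. Higher were the lysosomal metal transporter gene Slc11a1 (log2 fold change 0.98, SE 0.19, edgeR adjusted p = 0.000888), the haem-sensing repressor gene Bach1 (0.50, SE 0.11) and Nfe2l2, which encodes NRF2, an activator of Hmox1 transcription (0.84, SE 0.18). Blvrb, a biliverdin reductase gene, rose with a log2 fold change of 0.94 (SE 0.23), and the transferrin gene Trf with 0.66 (SE 0.15). Hfe, a regulator of systemic iron, fell from 107 ± 11.7 to 56.9 ± 7.92 CPM and Gclc, a glutathione synthesis gene, from 75.4 ± 3.52 to 45.2 ± 5.19 CPM (SD, n = 3 each).

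Of the ferritin chains, Ftl1 was called higher, its mean being 275 CPM against 209 CPM in WT (edgeR adjusted p = 0.0312). That call was lost without IRF4-deficient replicate 2 (0.0752), IRF4-deficient replicate 3 (0.126) or WT replicate 3 (0.137). Fth1 was not called, with means of 668 and 737 CPM, nor was the transferrin receptor gene Tfrc, with 229 and 201 CPM. Cd163, the haemoglobin scavenger receptor gene, measured 15, 39.8 and 16.3 CPM in the IRF4-deficient group and 20.9, 17.2 and 13.2 CPM in WT, with overlapping groups and replicate 2 the highest.

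The C1q chains are encoded by neighbouring genes on the minus strand of chromosome 4, in the order C1qb (136880129 to 136886187), C1qc (136889804 to 136893065) and C1qa (136895917 to 136898803). The 3 chains assemble into C1q, which starts the classical complement pathway and tags dying cells. C1qb measured 137, 184 and 239 CPM in the IRF4-deficient group and 103, 106 and 85.0 CPM in WT. For C1qc the values were 93.6, 133 and 212 CPM, against 80.8, 73.8 and 56.5 CPM in WT. C1qa had the lowest CPM of the chains, at 27.3, 39.5 and 38.5 CPM, against 21.6, 23.1 and 13.8 CPM in WT. Groups did not overlap for any of the 3, IRF4-deficient replicate 1 was the nearest to WT each time, and for C1qa replicates 2 and 3 were close together. Log2 fold changes were 0.93 (SE 0.18) for C1qb, 1.05 (SE 0.33) for C1qc and 0.84 (SE 0.20) for C1qa.

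Set per kilobase of exon, C1qb was the highest chain and C1qa the lowest in every library. Exon length, here and below, counts the exon bases of all annotated transcripts of a gene together. It was 1088 bases for C1qb, 1931 for C1qc and 1040 for C1qa, so levels per kilobase of different genes depend on the annotation. Mean levels of C1qb, C1qc and C1qa were 171, 75.6 and 33.8 CPM per kilobase in IRF4-deficient and 90.1, 36.4 and 18.7 CPM per kilobase in WT cells. The ratio of C1qb to C1qa per kilobase was 4.79, 4.44 and 5.93 in the IRF4-deficient group and 4.57, 4.39 and 5.89 in WT, so this proportion overlapped between the groups while the levels did not.

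Of 14 tested complement genes outside the set, 4 were called higher and 1 lower (edgeR, adjusted p under 0.05), and their median log2 fold change was -0.011. Among those higher were Cd93, a surface receptor gene (log2 fold change 1.34, SE 0.24), C3, the central component (0.71, SE 0.14), and Cfp, which encodes properdin (0.41, SE 0.10). Mean levels of Cfp were 423 CPM (IRF4-deficient) and 319 CPM (WT). Cr2, a complement receptor gene typical of B cells, fell from 32.8 ± 1.57 to 13.1 ± 3.53 CPM. C1ra, whose product is a protease partner of C1q, was at 0 to 0.779 CPM.

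Axl and Mertk encode receptor kinases of one family, which sense phosphatidylserine on dying cells through the bridging proteins GAS6 and protein S. Axl (chromosome 7, 25757273 to 25788705, minus strand) measured 154, 205 and 309 CPM in the IRF4-deficient group and 120.0, 128 and 104 CPM in WT. Its groups did not overlap, and its log2 fold change was 0.92 (SE 0.26). Mertk (chromosome 2, 128698956 to 128802894, plus strand) measured 48.3, 72.9 and 88.9 CPM, against 34.7, 48.6 and 35.4 CPM in WT. IRF4-deficient replicate 1 was just under WT replicate 2, so the groups overlapped. The log2 fold change of Mertk was 0.81 (SE 0.20). Per kilobase of exon Axl exceeded Mertk in every library, with means of 44.2 and 16.2 CPM per kilobase in IRF4-deficient and 23.3 and 9.13 CPM per kilobase in WT cells. Tyro3, the remaining family member, was at 0 to 1.56 CPM, and the ligand genes Gas6 and Pros1 were at 0.184 to 1.73 CPM and 2.55 to 10.5 CPM.

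Of 21 tested genes of apoptotic cell uptake outside the set, 9 were called higher and 0 lower (edgeR, adjusted p under 0.05), and their median log2 fold change was 0.56. Itgb3, an integrin chain that pairs with the alpha-v chain to bind MFG-E8 on dying cells, rose 5.31-fold from 36.8 ± 3.11 to 196 ± 23.5 CPM (edgeR adjusted p = 5.62e-11). The alpha-v gene Itgav was not called, with means of 174 and 175 CPM. Cd300a, an inhibitory receptor for phosphatidylserine, rose from 663 ± 5.26 to 1233 ± 73.1 CPM. Dock1 and Dock2, which encode activators of Rac, rose by 1.30 (SE 0.22) and 0.37 (SE 0.08) in log2 fold change. Their partner genes Elmo1 (523 and 585 CPM) and Rac1 (482 and 457 CPM) were not called. Abca1, a cholesterol exporter gene, rose by 1.07 (SE 0.20). In Itgb3 and Cd300a replicate 2 was the highest IRF4-deficient library.

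Vcam1 (chromosome 3, 116109949 to 116129688, minus strand) encodes an adhesion molecule that binds the integrin VLA-4, and had the highest CPM of the 10 in each library. It measured 664, 924 and 1106 CPM in the IRF4-deficient group and 386, 522 and 344 CPM in WT. All IRF4-deficient libraries were above all WT libraries, with WT replicate 2 nearest to them, and the log2 fold change was 1.10 (SE 0.25). An annotated gene on the other strand (Gm43109) overlaps exons of Vcam1, and without a known strand setting reads of the pair cannot be told apart.

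Of 10 tested genes for integrins and other adhesion partners, 4 were called higher and 2 lower (edgeR, adjusted p under 0.05), and their median log2 fold change was 0.17. Itga4, the alpha chain of VLA-4, fell from 2861 ± 316 to 1776 ± 270.1 CPM (log2 fold change -0.69, SE 0.10, edgeR adjusted p = 0.000192). Its beta partner gene Itgb1 was not called, with means of 389.8 and 331 CPM, and the alternative partner gene Itgb7 rose by 0.65 (SE 0.10) in log2 fold change. Itgb2 and Itgal, which form LFA-1, rose by 0.57 (SE 0.07) and 0.53 (SE 0.09), and Msn, which encodes the cortical linker moesin, by 0.70 (SE 0.07). The other gene called lower was Icam2, at 4.05 to 4.90 CPM against 7.51 to 9.82 CPM in WT (edgeR adjusted p = 0.0362), and its adjusted p was 0.0569 to 0.133 once IRF4-deficient replicate 1 or 2 or any WT replicate was left out.

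Cd5l (chromosome 3, 87357881 to 87371073, plus strand), whose secreted product promotes macrophage survival, measured 49.4, 76.1 and 92.0 CPM in the IRF4-deficient group and 31.5, 35.9 and 33.9 CPM in WT. The groups were apart, and the WT values lay close together. The log2 fold change was 1.10 (SE 0.18).

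**Figure D2:**
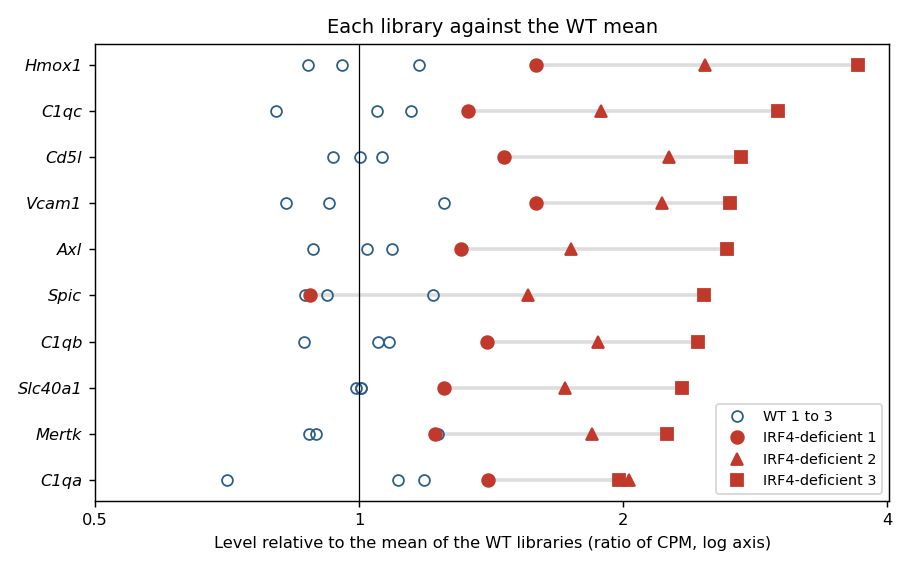
Level of each gene in each library divided by its mean over the WT libraries (log axis), for the WT and IRF4-deficient libraries. Hmox1 reached 3.70 times the WT mean in IRF4-deficient replicate 3, and Spic in replicate 1 was at 0.879 times the WT mean.

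As the genes were picked partly for their spread among the IRF4-deficient libraries, that spread too is a description. Their coefficient of variation there was 19.3% (C1qa) to 48.9% (Spic), against 0.771% (Slc40a1) to 25.6% (C1qa) in WT. The median SD of log2(CPM + 1) was 0.45 in IRF4-deficient and 0.23 in WT libraries, beside 0.19 and 0.17 over all tested genes. Replicate 3 exceeded replicate 1 at least 1.5-fold for 9 of 10 genes, as for 10.6% of tested genes, and C1qa at 1.41-fold was the exception. Replicate 2 exceeded replicate 1 by 1.33 to 1.77 times. Irf4 had another order, with replicate 2 the lowest of the 3.

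The share of each gene in the summed CPM was compared between libraries. Vcam1 held 36.1 to 42.1% of the summed CPM over the 6 libraries, Axl 9.10 to 11.2%, C1qb 8.0 to 9.65% and Cd5l 2.87 to 3.61%, each with overlapping groups. Hmox1 departed from this, with a share of 16.4, 17.9 and 20.1% in the IRF4-deficient group against 14.5, 15.2 and 15.1% in WT. Mertk had a smaller share in IRF4-deficient (2.97 to 3.24%) than in WT libraries (3.25 to 3.89%), also without overlap. Spic ranged from 2.09% in IRF4-deficient replicate 1 to 4.26% in WT replicate 1.

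**Figure D3:**
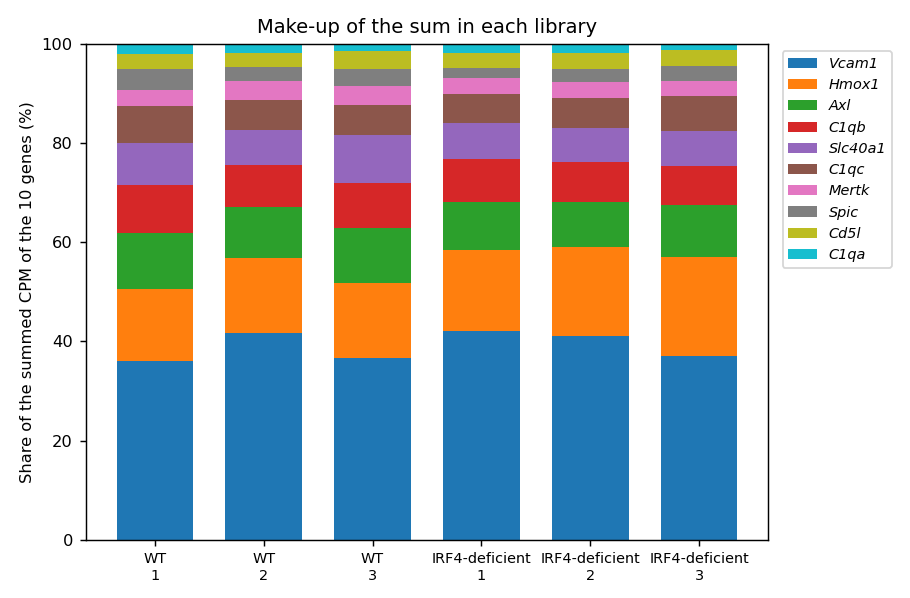
Share of each gene in the summed CPM of the 10 genes (percent, stacked to 100) in each library. The Vcam1 share lay at 36.1 to 42.1%, and the Hmox1 share was highest in IRF4-deficient replicate 3, at 20.1%.

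Compared per kilobase of exon, Hmox1 and C1qb had the highest mean levels of the 10 in WT cells (92.7 and 90.1 CPM per kilobase), with overlapping libraries. Vcam1 followed at 47.0, C1qc at 36.4, Axl at 23.3, C1qa at 18.7 and Cd5l at 16.6 CPM per kilobase. In that order Vcam1 overlapped with C1qc, Axl with C1qa and C1qa with Cd5l, while C1qb lay above Vcam1 and C1qc above Axl in all WT libraries. Slc40a1, Spic and Mertk were lowest, at 10, 9.76 and 9.13 CPM per kilobase, and overlapped. In IRF4-deficient cells Hmox1 (240.2), C1qb (171) and Vcam1 (101 CPM per kilobase) again had the highest means, and Slc40a1, Mertk and Spic the lowest (17.8, 16.2 and 16.0 CPM per kilobase). These rankings depend on the annotated exon lengths, which ran from 1040 bases (C1qa) to 9000 bases (Slc40a1, with 8 annotated transcripts).

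Of 22 other tested genes of red pulp macrophages, 11 were called higher and 1 lower (edgeR, adjusted p under 0.05), and their median log2 fold change was 0.94. Itgad, the CD11d integrin chain gene, rose from 62.7 ± 9.43 to 295 ± 53.4 CPM (log2 fold change 2.23, SE 0.14, edgeR adjusted p = 1.31e-08), and Treml4 from 72.7 ± 12.1 to 232 ± 50.2 CPM. Epb4.1l3, a membrane skeleton protein gene, rose from 21.7 ± 1.25 to 67.3 ± 12.6 CPM. Csf1r, the receptor gene on which macrophages depend, measured 566, 689 and 859.6 CPM in the IRF4-deficient group and 334, 351 and 293 CPM in WT, with a log2 fold change of 1.11 (SE 0.13). Hpgd, a prostaglandin-degrading enzyme gene, rose by 1.18 (SE 0.15). The mannose receptor gene Mrc1 was called (log2 fold change 0.97, SE 0.22, edgeR adjusted p = 0.0235), with adjusted p of 0.0913, 0.115 and 0.0508 once IRF4-deficient replicate 2, WT replicate 1 or WT replicate 3 was left out.

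Some genes of that list departed from the 10. Emr1, the F4/80 gene, fell from 298 ± 27.2 to 196 ± 13.5 CPM (log2 fold change -0.61, SE 0.09, edgeR adjusted p = 8.36e-05). Lyz2, the lysozyme gene, rose 2.23-fold, and its IRF4-deficient values of 879, 980.4 and 833 CPM were lowest in replicate 3. Neither the lysosomal marker gene Cd68 (439.5 and 368 CPM) nor Cd38 (74.0 and 71.0 CPM) was called. In 17 of the 22 genes replicate 1 was the lowest and replicate 3 the highest IRF4-deficient library, against 18.3% of all tested genes.

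**Figure D4:**
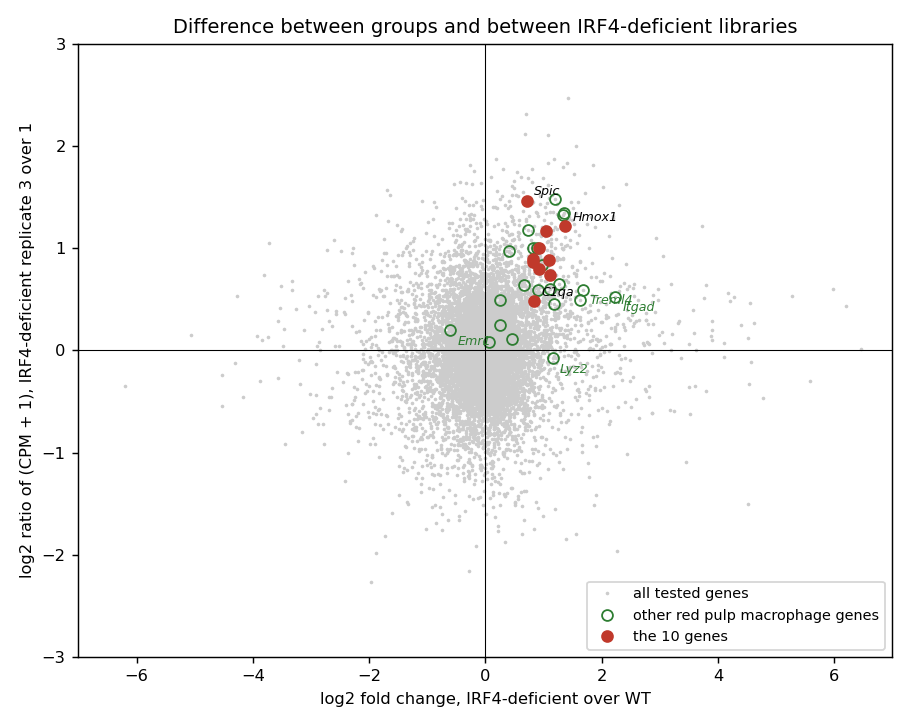
Each of 11934 tested genes by its log2 fold change between the groups (horizontal) and the log2 ratio of CPM + 1 between IRF4-deficient replicates 3 and 1 (vertical), with the 10 genes and the other red pulp macrophage genes marked. The 10 genes lie between 0.48 (C1qa) and 1.47 (Spic) on the vertical axis, Emr1 lies left of 0 and Lyz2 just under 0 vertically.

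Among genes that macrophages of several organs share, 16 of 25 tested were called higher and 1 lower (edgeR, adjusted p under 0.05), and their median log2 fold change was 0.82. Ctsd, an aspartic protease gene, rose from 147 ± 24.3 to 323 ± 89.4 CPM (edgeR adjusted p = 0.00826, but 0.0553 without WT replicate 1). Lamp2, a lysosomal membrane protein gene, rose by 0.49 (SE 0.10) in log2 fold change, Glul, the glutamine synthetase gene, by 0.71 (SE 0.14), Tcn2, which encodes the vitamin B12 carrier transcobalamin, by 0.80 (SE 0.16) and Dok3, an adaptor gene, by 1.93 (SE 0.33). Tlr7, an RNA-sensing receptor gene, was the one called lower, from 181 ± 10.9 to 97.2 ± 17.7 CPM. In 19 of these 25 genes replicate 1 was the lowest and replicate 3 the highest IRF4-deficient library, against 18.3% of all tested genes. This list shares Abca1, Blvrb, Pros1 and Fcgr1 with those above, and the iron and red pulp macrophage lists share Trf and Cd163.

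The genes most like the set in their profile over the 6 libraries were looked for among 7955 others with a mean of at least 10 CPM, each log2(CPM + 1) profile centred on its own mean. The root mean square difference from the mean profile of the 10 was smallest for Cadm1 (0.065), Mrc1 (0.074), Slc16a10 (0.091), Tmem65 (0.096), Ptgs1 (0.096), Abca1 (0.099), Sepp1 (0.105), Ccr3 (0.106), Tlr8 (0.108) and Rybp (0.109, all in log2 units). The 10 genes themselves lay between 0.052 (C1qb) and 0.262 (Spic). Cadm1, a cell adhesion molecule gene, measured 22.0, 37.4 and 45.3 CPM in the IRF4-deficient group and 18.4, 18.6 and 14.8 CPM in WT. For Slc16a10, an amino acid transporter gene, the values were 27.1, 43.3 and 54.4 CPM, against 20.3, 20.2 and 19.4 CPM in WT. In both, IRF4-deficient replicate 1 was the lowest of its group and still above each WT library. The mean profile they were matched to has this order too, so it follows from the search.

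Markers of other cell types were summed in each library. Those of marginal zone and metallophilic macrophages (6 genes) came to 29.1 to 41 CPM in IRF4-deficient and 27.1 to 32.2 CPM in WT libraries, and 1 of 5 tested was called, Cd209d, which was higher at 4.69, 3.95 and 6.01 CPM against 1.24, 0.364 and 0.820 CPM in WT (edgeR adjusted p = 0.00124). Marco measured 4.14, 7.17 and 6.57 CPM, against 3.46, 2.09 and 3.82 CPM in WT, without overlap. Siglec1 measured 8.47, 8.40 and 14.6 CPM, against 7.47, 11.5 and 6.42 CPM in WT, with overlap. Neither was called. Cd209b, also of this list, went the other way and was lower in every IRF4-deficient library than in every WT library. It was not called either, and its values are given under the other observations below. The monocyte list (8 genes) came to 432, 631 and 716 CPM in the IRF4-deficient group and 212, 165 and 103 CPM in WT. Its IRF4-deficient libraries had the same order as in the sum of the 10 genes, an order found in 18.3% of all tested genes. Of 5 tested genes of that list 2 were called higher, Ccr2 among them, and 0 lower, and their median log2 fold change was 1.62. Ace was not called (edgeR adjusted p = 0.0562), and the classical monocyte genes Ly6c2 (0.636 to 3.34 CPM), F13a1 (0 to 1.24 CPM), Chi3l3 (0.0920 to 1.67 CPM) and Vcan (0.138 to 2.60 CPM) were near 0. T cell markers (8 genes) came to 27.8 to 40.2 CPM against 13.2 to 19.9 CPM, and stromal and endothelial genes (5 of 10 listed had a row) to 36.3 to 44.9 CPM against 22.4 to 34.2 CPM.

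B cell markers (8 genes) summed to 113 to 153 CPM in IRF4-deficient and 102 to 175 CPM in WT libraries, and erythroid markers (6 of 12 listed had a row) to 20.4 to 55.1 CPM and 44.4 to 78.1 CPM. Markers of cDC2s (12 genes) summed to 21834 to 23716 CPM and 23109 to 25798 CPM, and of plasmacytoid dendritic cells (6 of 7) to 83.2 to 99.99 CPM and 92.1 to 118 CPM. Cd74 was the largest part of the cDC2 sum, in which 6 genes were called lower and 2 higher. The sum of cDC1 markers (7 genes) was 897 to 1017 CPM and 1677 to 1829 CPM, most of it from Wdfy4, which fell from 1577 ± 70.3 to 732 ± 40.1 CPM. Of these 7 genes Batf3 was also called lower (27.0 against 66.3 CPM), while Clec9a (81.8 against 47.8 CPM), Tlr3 (69.3 against 38.0 CPM) and Xcr1 (28.2 against 16.3 CPM) were called higher, Xcr1 in only 2 of 6 fits that left out 1 library. Plasma cell markers (4 of 6, Irf4 among them) came to 101 to 129 CPM and 331 to 398 CPM. Most of that sum was the targeted gene Irf4 itself, at 65.3 to 90.8 CPM in IRF4-deficient and 292 to 345 CPM in WT libraries. Neutrophil, platelet and NK cell lists each summed to at most 12.6 CPM. The part of other cell types in the levels of the 10 genes was not tested.

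**Figure D5:**
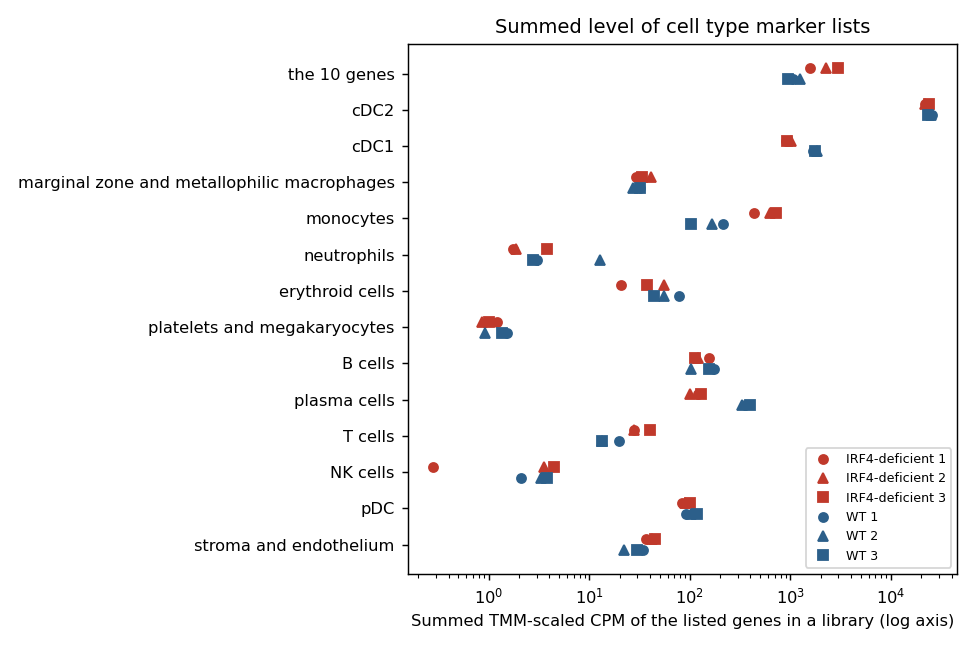
Summed TMM-scaled CPM (log axis) of the 10 genes and of each marker list in each library, red for IRF4-deficient and blue for WT, with symbols for replicates 1 to 3. The 10 genes summed to 938 to 2989 CPM and the monocyte list to 103 to 716 CPM.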

How the data were processed

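Per the labels' protocols, total RNA was made into Illumina libraries. The authors deposited raw counts per gene symbol, as whole numbers in 6 columns, and the submitters' processing notes name STAR, HTSeq, DESeq2 and mm10 without versions. Annotation, strand setting and row filter are not stated there and are otherwise not given in the sources used here. WT columns carry other numbers than the titles and were matched through the source names. Of 14535 rows, 7 were 0 in all libraries. No replicate pair agreed within sampling noise (chi-square per degree of freedom 7.66 to 15.9).

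Genes were kept by filterByExpr, scaled by TMM and tested with edgeR 4.0.16 (glmQLFit with robust shrinkage, glmQLFTest, R 4.3.3), IRF4-deficient against WT, with Benjamini-Hochberg adjustment over 11934 genes. The steps were also run on simulated counts that gave all genes a common spread, unlike these libraries. That run checks the code alone. Fold changes carry a prior count of 0.125, and the SE derives from the F statistic. Positions and exon lengths come from GENCODE M21 (GRCm38) and promoters from RefSeq (GRCm38.p6, leaving out mouse chromosome 18). The set, the lists, the tests and the alternatives were chosen with earlier results of these data known. In each list up to 4 called genes with the smallest p were named, and any gene averaging 50 CPM or more was open to naming. The 10 genes nearest in profile and defining markers of other cell types were named too. Blvrb, Cd163, C1ra, Icam2, Tyro3, Gas6 and Pros1 fall outside this rule and were chosen after their values were seen. Some genes counted in the lists are not reported here by name. Alternatives were DESeq2 1.42.0, limma-voom (limma 3.58.1), other scaling factors and filters, removal of Rn45s and Malat1, edgeR without robust shrinkage, a block for the replicate number, and leaving out each library.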

Additional observations from a re-analysis of the deposited data

How the results depend on the processing

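The log2 fold changes of the 10 genes stayed above 0 under all 16 alternatives run, from 0.28 (Spic without IRF4-deficient replicate 3) to 1.63 (Hmox1 without IRF4-deficient replicate 1). How many of the set passed the threshold depended on the tool and on single libraries. Leaving out 1 library gave 3 to 10 genes of the set (10 without IRF4-deficient replicate 1, 3 without WT replicate 1) and 1779 to 2431 of all genes. Over the same fits 10 to 18 other red pulp macrophage genes, 12 to 19 macrophage genes of several tissues, 8 to 10 iron and haem, 5 to 6 complement, 7 to 10 uptake and 5 to 7 adhesion genes were called. These list counts take higher and lower calls together. In the same order, the main fit tested 22, 25, 24, 14, 21 and 10 genes of the lists. It called 20.4% of all tested genes in either direction. The log2 ratio of the summed level was 0.82 to 1.27 when 1 library was left out.

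Both groups use replicate numbers 1 to 3, here those of the sample titles. Libraries of the same number shared little deviation from their group means (correlations of -0.00965, 0.0525 and -0.0147 over genes). Other pairs gave -0.0417 to 0.0462, and not every library correlated best with its own number. Values this near 0 gave no sign of pairing by number, but the check cannot exclude pairing. With the number as a replicate block 2267 of 11934 genes were called, higher and lower together. Counted in the same way, 8 of the set, 15 other red pulp macrophage genes, 16 of several tissues, 9 iron and haem, 5 complement, 9 uptake and 5 adhesion genes were called. Each of the 10 genes had at least 101 counts in every library.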

Other observations

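Some genes of splenic macrophages had a library order of their own, and those given here were picked after their values were seen. Cd163 measured 15, 39.8 and 16.3 CPM in the IRF4-deficient group, and Timd4, a phosphatidylserine receptor gene, 5.80, 17.1 and 5.23 CPM, both with replicate 2 the highest. Neither was called between the groups (edgeR adjusted p = 0.440 and 0.321). Cd209b, a lectin gene of marginal zone macrophages, measured 5.43, 2.72 and 0.334 CPM in the IRF4-deficient group and 14.9, 7.27 and 12.2 CPM in WT, with every IRF4-deficient library below every WT library, and missed the threshold (edgeR adjusted p = 0.0659). Cd209d, a related lectin gene, went the other way, at 4.69, 3.95 and 6.01 CPM against 1.24, 0.364 and 0.820 CPM in WT, and was called (edgeR adjusted p = 0.00124).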
